A study of Mus musculus with 2 samples.

Results

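NF-kB subunits and their feedback genes are described here across the nuclei of tumors driven by the CIC::DUX4 fusion. The set was 10 genes, namely Nfkb1, Nfkb2, Rel, Rela, Relb, Nfkbia, Bcl3, Tnfaip3, Birc3 and Icam1, found by symbol among the 19059 features counted in every matrix. Each of the 10 symbols matched 1 feature. The tumors arose in the dFLEx CDS mouse (genotype dFLEx CDS +/-), in which Cre and FLP recombinases, delivered as plasmids into hind limb muscle by electroporation, turn on CIC::DUX4 under the ubiquitous CAG promoter. All 8 tumors carried this allele, and any cell at the site that took up both plasmids could recombine it. The untreated group held 4 tumors, and Minnelide had been given at 0.42 mg/kg for 21 days in the other 4. This prodrug dissolves in water and releases triptolide, which binds the XPB subunit of TFIIH and blocks transcription by RNA polymerase II. The comparison asked how the NF-kB genes differed between treated and untreated tumors, and in which nuclei. The labels do not give the time of collection of the untreated tumors.

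NF-kB is a family of dimeric transcription factors that inhibitors of the IkB family hold in the cytoplasm until ligands such as TNF, IL-1 or RANKL activate the IkB kinases. Freed dimers switch on inflammatory and survival genes together with their own brakes, so that Nfkbia, Tnfaip3, Birc3 and some of the subunit genes are transcribed again after each activation. The pathway is well known from macrophages, endothelial cells and osteoclasts, the bone-resorbing giant cells that need RANK and NF-kB signals to form.

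The measurement was single-nucleus RNA sequencing, with UMIs (unique molecular identifiers, each standing for a captured RNA molecule) counted per gene and nucleus, intronic reads included. The 8 matrices held 18487409 to 73211599 UMIs each, and 4465 to 10368 nuclei per tumor were retained. The median nucleus held 883 UMIs in untreated tumor 4, the shallowest, whereas the remaining tumors had medians from 2329 to 4031. The retained nuclei formed 25 clusters, named by marker lists with the ending "-like", since the files used here carry no cell labels. These were 12 tumor-like clusters (37113 nuclei), 1 macrophage-like (1793), 1 osteoclast-like (758), 3 fibroblast-like (6950), 2 endothelial-like (3169), 1 pericyte-like (943) and 4 myocyte-like (7793), and 1385 nuclei stayed unnamed. Of the unnamed nuclei 1373 came from Minnelide tumors (12.1% of Minnelide tumor 3) and 12 from untreated tumors, so the nuclei outside every class were nearly all treated. In 10 of the 12 tumor-like clusters over 90% of the nuclei came from 1 tumor. The same held for 1 endothelial-like, 1 fibroblast-like and 2 myocyte-like clusters. UMIs were summed per tumor and class and expressed as CPM, the usual per-total scaling of a gene's UMIs, here to all UMIs of that class in that tumor, so a tumor is the unit of replication. Barcodes were shared by 4 of the 28 pairs of tumors, 49 to 132 barcodes each, and every such pair joined an untreated tumor with a Minnelide tumor whose barcodes had the same bases 8 and 9. The other pairs differed in these bases and shared 0 barcodes. The labels give no sequencing run, so a run and the treatment cannot be told apart.

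In the GRCm39 annotation of GENCODE (mouse release 39) the 10 genes lie on 7 chromosomes. The subunit genes are Nfkb1 (chr3:135290264-135397742), Nfkb2 (chr19:46292759-46303812), Rel (chr11:23686847-23721264), Rela (chr19:5687493-5698161) and Relb (chr7:19339017-19363425). The inhibitor and feedback genes are Nfkbia (chr12:55535332-55539432), Bcl3 (chr7:19541553-19557570), Tnfaip3 (chr10:18874201-18891405) and Birc3 (chr9:7845790-7873229), and the adhesion target is Icam1 (chr9:20926672-20940113). Nfkb2 overlaps the protein-coding gene Psd on the opposite strand, which was counted too. The strand setting of the counting was not stated, so reads of Nfkb2 and Psd in the shared stretch may not be told apart.

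Autoregulation of these genes is classically read through kappa-B sites in their own promoters, and the matches are shown because this motif is what the protein products of the subunit genes bind. The 10-base kappa-B consensus was searched on both strands in the 500 bases before the start of each gene's canonical transcript, on GRCm39. It was present in 5 of the 10 genes (50.0%) and in 1533 of the 21766 promoters of protein-coding genes that could be read (7.04%). A match is a string of letters and not a measured binding site. The 6 matches are written 5′ to 3′ along the gene's own strand with the matching bases in capitals and 10 bases on either side. For Icam1 and the nearer Nfkbia match the consensus reads on the opposite strand. None overlapped an exon of its gene, but the Tnfaip3 stretch lies inside the gene's span, in an intron of a longer transcript.
Relb, 37 bases before the start (chr7:19363441-19363470, minus strand): gtgagcagcgGGGGTTTTCCcattcccttt
Icam1, 243 bases before the start (chr9:20926419-20926448, plus strand): gagaaggagaGGAAACCCCCccataaggcg
Tnfaip3, 97 bases before the start (chr10:18891264-18891293, minus strand): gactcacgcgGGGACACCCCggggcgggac
Rel, 276 bases before the start (chr11:23721521-23721550, minus strand): ataaggctgcGGGGGTCCCCgtatgcaaat
Nfkbia, 273 bases before the start (chr12:55539686-55539715, minus strand): atcgcccggtGGGAAACCCCagggaaagaa
Nfkbia, 29 bases before the start (chr12:55539442-55539471, minus strand): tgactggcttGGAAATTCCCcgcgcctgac

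The levels of the 10 genes by class are given first, as a description over all 8 tumors. Osteoclast-like nuclei had the highest mean of 8 of the 10 genes. The exceptions were Rela, the main activating subunit, highest in pericyte-like nuclei, and Icam1, highest in macrophage-like nuclei. Tumor-like nuclei had the lowest mean of 4 of the 10 genes, namely Rel, Relb, Bcl3 and Tnfaip3. The osteoclast-like cluster had all 8 of its markers raised, was led by genes such as Atp6v0d2, Nyap2 and St18, and held 38 to 223 nuclei per tumor. It also had raised macrophage markers, and most clusters of the other classes had raised markers of a further class too. None of the 10 genes was among the genes used to form the clusters.

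Among the inhibitor and feedback genes the spread between classes was widest for Tnfaip3, which encodes a ubiquitin-editing enzyme that shuts off NF-kB signaling. Tnfaip3 measured 115 ± 66.1 CPM (SD, n = 8 tumors) in osteoclast-like nuclei against 17.8 ± 8.29 CPM in macrophage-like and 6.31 ± 3.53 CPM in tumor-like nuclei. It was higher in the osteoclast-like than in the macrophage-like nuclei in 8 of 8 tumors. Nfkbia, whose product IkB-alpha returns NF-kB to the cytoplasm, had 401 ± 224 CPM in osteoclast-like nuclei and 151 ± 83.8 CPM in endothelial-like nuclei, again in the same order in 8 of 8 tumors. Birc3, encoding an inhibitor of apoptosis that acts as a ubiquitin ligase at TNF receptors, had means of 223 ± 75.2, 137 ± 48.6 and 48.2 ± 15.7 CPM in osteoclast-, macrophage- and endothelial-like nuclei. Each step held in 8 of 8 tumors, as did the next one down to fibroblast-like nuclei (40.3 ± 10.4 CPM), whereas further neighbors did not differ beyond the spread between tumors. Bcl3, a nuclear IkB protein that works as a coactivator, was at 55.2 ± 37.5, 53.3 ± 14.9 and 52.4 ± 27.7 CPM in osteoclast-, fibroblast- and macrophage-like nuclei, 3 levels that did not differ beyond their spread.

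Of the subunits, Rel separated the classes most. Rel, which encodes the c-Rel subunit of blood and immune cells, had 114 ± 45.2 CPM in osteoclast-like, 84.0 ± 25.2 CPM in macrophage-like and 13.1 ± 15.05 CPM in tumor-like nuclei. Nfkb1, the gene of the p105 precursor, ranged less, from 517 ± 121 CPM in osteoclast-like to 231 ± 91.6 CPM in tumor-like and 198 ± 33.4 CPM in myocyte-like nuclei. Relb and Nfkb2, the pair of the noncanonical arm, had their highest means in osteoclast-like nuclei, at 95.8 ± 36.7 and 30.3 ± 12.6 CPM. Macrophage-like nuclei followed at 60.1 ± 15.2 and 23.4 ± 10.4 CPM, in that order in 6 of 8 tumors for each gene, so the 2 classes did not stand apart. Rela measured 15.2 to 25.3 CPM across the 7 class means, and no neighbors in that order stood apart. Icam1, the adhesion receptor for leukocyte integrins, measured 32.2 ± 10.4 CPM in macrophage-like and 28.3 ± 20.9 CPM in endothelial-like nuclei, whose ranges overlapped.

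**Figure D1:**
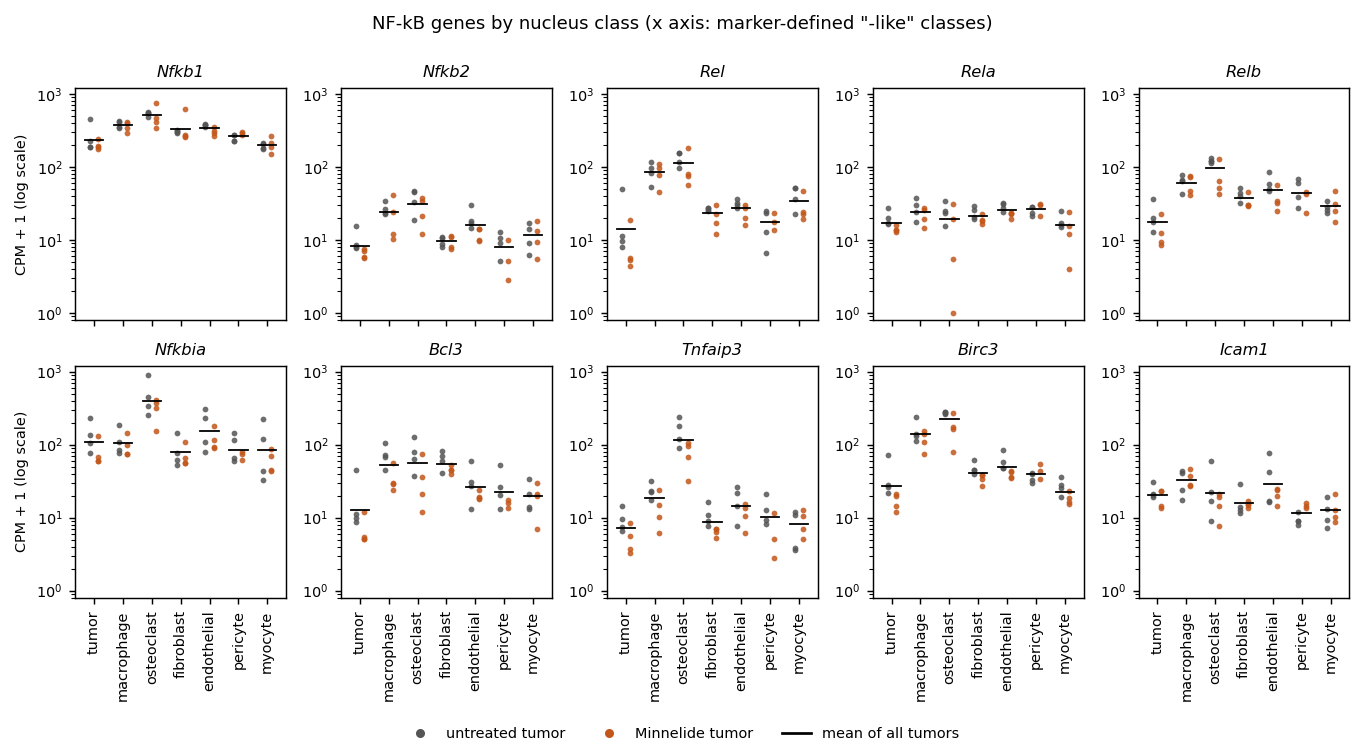
Level of each gene by nucleus class, as CPM + 1 on a log axis, with a point per tumor (grey untreated, orange Minnelide) and a line at the mean of the tumors with at least 20 nuclei of that class. Osteoclast-like nuclei stand highest for 8 of the 10 genes, and Rela lies between 15.2 and 25.3 CPM in all 7 class means.

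Genes upstream of NF-kB were also uneven between classes. Tnfrsf11a, encoding the RANK receptor of osteoclasts, had 752 ± 238 CPM in osteoclast-like nuclei, 195 ± 59.8 CPM in macrophage-like and 18.4 ± 12.6 CPM in tumor-like nuclei. Its ligand gene Tnfsf11 (RANKL) was at 111 ± 45.9 CPM in fibroblast-like nuclei and at 8.62 ± 3.88 CPM in tumor-like nuclei. The level per class was highest in the osteoclast-like class for the receptor and in the fibroblast-like class for the ligand. Tumor RNA was also counted outside the tumor-like class. The 8 tumor markers summed to means of 7761 (untreated) and 11074 CPM (Minnelide) in macrophage-like nuclei, against 15948 and 16927 CPM in tumor-like nuclei. In fibroblast-like nuclei the means were 4959 (untreated) and 7586 CPM (Minnelide).

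In tumor-like nuclei the mean of all 10 genes was lower in the Minnelide than in the untreated tumors, and no gene passed the test. edgeR's quasi-likelihood test with Benjamini-Hochberg adjustment called 0 of 13042 genes (0.00%) at an adjusted p under 0.05. Unadjusted, 864 genes were under that level, and 52 passed adjustment in DESeq2. The log2 fold change was below 0 for 10 of the 10 genes and for 48.8% of all genes tested. The median of the 10 was -0.594 on the log2 scale, against 0.008 over all genes tested. The 10 were chosen with earlier results of these data known, and 9 of them were highest in untreated tumor 1. Their shared direction, here and in the other classes, is therefore a description and not 10 independent results. The groups did not overlap for 3 of the 10, with 4.98% of all genes lower without overlap, and 1 of the 10 had an unadjusted p under 0.05, with 5.10% of all genes lower at that level. The smallest adjusted p of edgeR among the 10 was 0.702.

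Rela, Nfkb2 and Birc3 were the genes without overlap. Rela measured 26.8, 15.7, 16.2 and 18.8 CPM in untreated tumors 1 to 4 and 12.8, 11.9, 12.9 and 14.9 CPM in Minnelide tumors 1 to 4. Every Minnelide tumor lay below every untreated tumor, and edgeR gave a log2 fold change with its SE of -0.40 ± 0.17 (adjusted p = 0.702). Nfkb2, whose product p100 is processed to a subunit of the noncanonical arm, measured 14.5, 7.46, 6.78 and 7.02 CPM in untreated tumors 1 to 4 and 4.72, 6.66, 4.90 and 6.03 CPM in Minnelide tumors 1 to 4. The highest Minnelide tumor lay just under the lowest untreated tumor, and untreated tumor 1 stood well above the rest. For Nfkb2 the log2 fold change was -0.51 ± 0.27 with an adjusted p of 0.716 by edgeR. Birc3 measured 72.2, 27.4, 21.1 and 25.4 CPM in untreated tumors 1 to 4 and 13.5, 19.9, 18.7 and 10.8 CPM in Minnelide tumors 1 to 4. Here too untreated tumor 1 was far above the others, while the remaining untreated tumors lay close over the Minnelide range. Its log2 fold change was -1.01 ± 0.37, with an unadjusted p of 0.0247 and an adjusted p of 0.702 by edgeR.

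Rel and Relb showed 1 high tumor in each group. Rel measured 48.6, 8.78, 7.07 and 10.3 CPM in untreated tumors 1 to 4 and 3.41, 17.6, 4.27 and 4.67 CPM in Minnelide tumors 1 to 4. Untreated tumor 1 was highest, Minnelide tumor 2 came next, and the groups overlapped. Relb, the transactivating partner of p100-derived NF-kB, measured 35.7, 16.5, 11.8 and 19.4 CPM in untreated tumors 1 to 4 and 8.44, 21.9, 7.44 and 11.3 CPM in Minnelide tumors 1 to 4. Minnelide tumor 2 again lay above 3 of the 4 untreated tumors. edgeR's log2 fold changes were -1.09 ± 0.75 for Rel and -0.58 ± 0.41 for Relb, with adjusted p values of 0.755 and 0.760 by edgeR. Nfkb1 measured 451, 227, 188 and 189 CPM in untreated tumors 1 to 4 and 175, 238, 187 and 192 CPM in Minnelide tumors 1 to 4. Apart from untreated tumor 1 the values of both groups lay together, and the log2 fold change was -0.23 ± 0.25 with an adjusted p of 0.826 by edgeR.

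The inhibitor and feedback genes other than Birc3 follow, of which Bcl3 encodes a coactivator. Bcl3 measured 44.4, 10.4, 7.74 and 8.99 CPM in untreated tumors 1 to 4 and 4.38, 11.1, 4.07 and 4.17 CPM in Minnelide tumors 1 to 4. Minnelide tumor 2 lay above 3 of the 4 untreated tumors, and the other Minnelide tumors lay below all of them. Its log2 fold change, -1.37 ± 0.61, was the lowest of the 10, with an adjusted p of 0.702 by edgeR. Tnfaip3 measured 13.3, 8.502, 5.52 and 6.37 CPM in untreated tumors 1 to 4 and 2.27, 4.54, 2.68 and 7.33 CPM in Minnelide tumors 1 to 4. Minnelide tumor 4 fell within the untreated range and the other 3 lay below it, for a log2 fold change of -0.83 ± 0.43 and an adjusted p of 0.710 by edgeR. Nfkbia measured 234, 135, 75.9 and 105 CPM in untreated tumors 1 to 4 and 59.1, 59.5, 67.6 and 129 CPM in Minnelide tumors 1 to 4. Minnelide tumor 4 was again the high treated tumor, near the level of untreated tumor 2, and the log2 fold change was -0.61 ± 0.36 with an adjusted p of 0.731 by edgeR. Icam1 measured 19.8, 18.3, 19.5 and 29.8 CPM in untreated tumors 1 to 4 and 22.1, 13.5, 21.9 and 12.6 CPM in Minnelide tumors 1 to 4. It was the gene of the 10 that was not highest in untreated tumor 1, its groups overlapped, and its log2 fold change was -0.18 ± 0.26 with an adjusted p of 0.876 by edgeR.

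**Figure D2:**
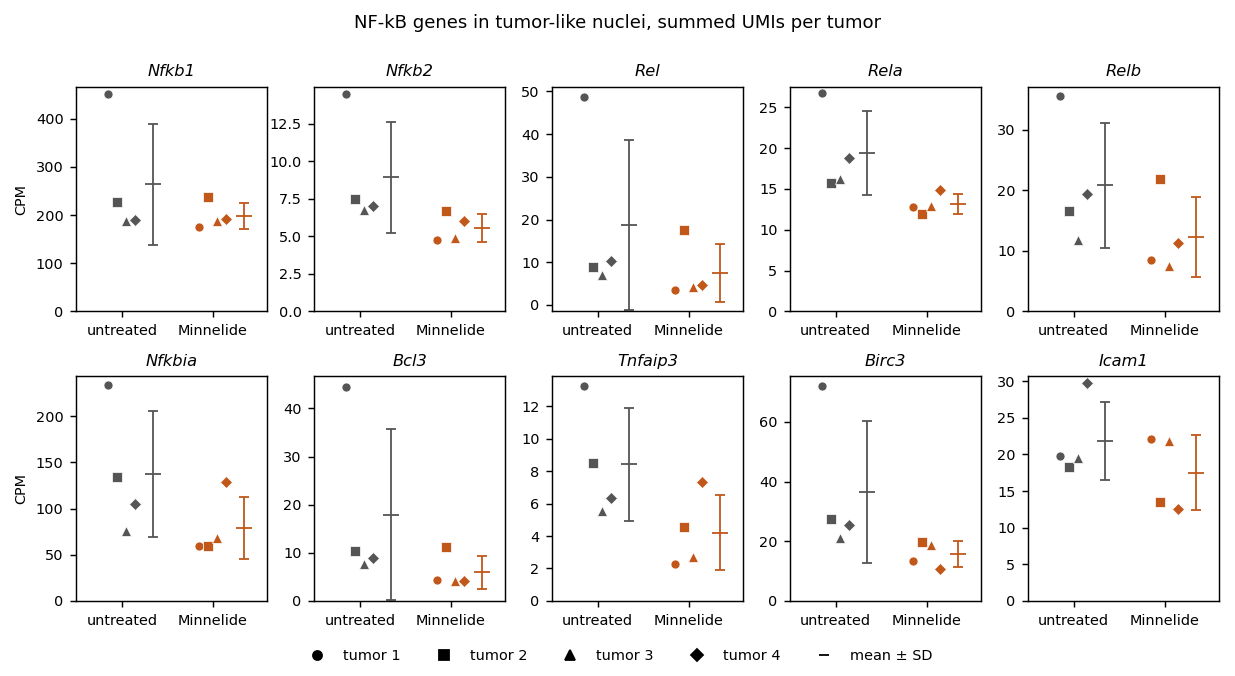
CPM of each gene in tumor-like nuclei, with a point per tumor (marker shape gives the tumor number, which pairs no tumors) and the mean ± SD of 4 tumors beside each group. Untreated tumor 1 is the highest point for 9 of the 10 genes, and Minnelide tumor 2 stands above the other treated tumors for Nfkb1, Nfkb2, Rel, Relb, Bcl3 and Birc3.

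The size of these differences depended on untreated tumor 1. Without it the median log2 fold change of the 10 genes moved from -0.594 to -0.270, and 9 of the 10 stayed below 0. Nfkb1 turned to 0.07 ± 0.14, Rel moved from -1.09 ± 0.75 to -0.13 ± 0.60, Bcl3 to -0.52 ± 0.40 and Birc3 to -0.55 ± 0.23. Rela, at -0.27 ± 0.15, and Tnfaip3, at -0.60 ± 0.44, moved by at most 0.23 on the log2 scale. The tumor-like nuclei of untreated tumor 1 also had higher sums of the markers of some other classes. Their 9 macrophage markers summed to 806 CPM, against 198 to 394 CPM in the other untreated and 189 to 321 CPM in the Minnelide tumors. The 8 endothelial markers summed to 2755 CPM there, and to 484 to 656 CPM in the other untreated tumors. The paper describes tumor cells with endothelial features in 1 of the dFLEx CDS tumors it sequenced. Whether the endothelial RNA here belongs to such tumor cells or to other cells was not tested. Osteoclast markers were instead highest in untreated tumor 2, at 1361 CPM, against 329 CPM in untreated tumor 1. The 9 T and NK cell markers summed to 158 CPM, against 12.2 to 19.9 CPM in the other untreated tumors. Without Minnelide tumor 2 the median of the 10 was -0.738.

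Log2 fold changes in tumor-like nuclei were below 0 for 8 of 9 macrophage, 7 of 8 osteoclast and 7 of 8 endothelial markers. Other lists differed, with 5 of 5 tested T and NK cell, 5 of 8 fibroblast, 3 of 8 myocyte and 0 of 6 tested pericyte markers below 0. Of these markers, 0 were at 0 in a whole group. Osteoclast markers there summed to 329 to 1361 CPM across untreated tumors (mean 640) and 249 to 528 CPM across Minnelide tumors (mean 343). Immediate early genes, which respond to tissue handling and stress, summed to 287 to 702 CPM across untreated and 239.8 to 333 CPM across Minnelide tumors, with 15 of 17 below 0. The part of these RNAs in the NF-kB differences was not tested. Tumor-like nuclei without a UMI of any macrophage or osteoclast marker were also summed alone, a choice made after the data had been seen. This keeps shallow nuclei unevenly, from 4.93% of the tumor-like nuclei of untreated tumor 1 to 51.2%, with a median of 777 UMIs, in untreated tumor 4, and it leaves endothelial and T cell RNA in place. Untreated tumor 2 had only 19 such nuclei and was left out. In the other 7 tumors 9 of the 10 genes could be tested, and 9 of these 9 had a log2 fold change below 0. Their median was -0.814, against 0.010 over all genes tested there. The share of all genes below 0 was not computed in these sums, so this count only describes the 9. edgeR called 0 of the 9970 genes tested there, with 615 at an unadjusted p under 0.05.

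**Figure D3:**
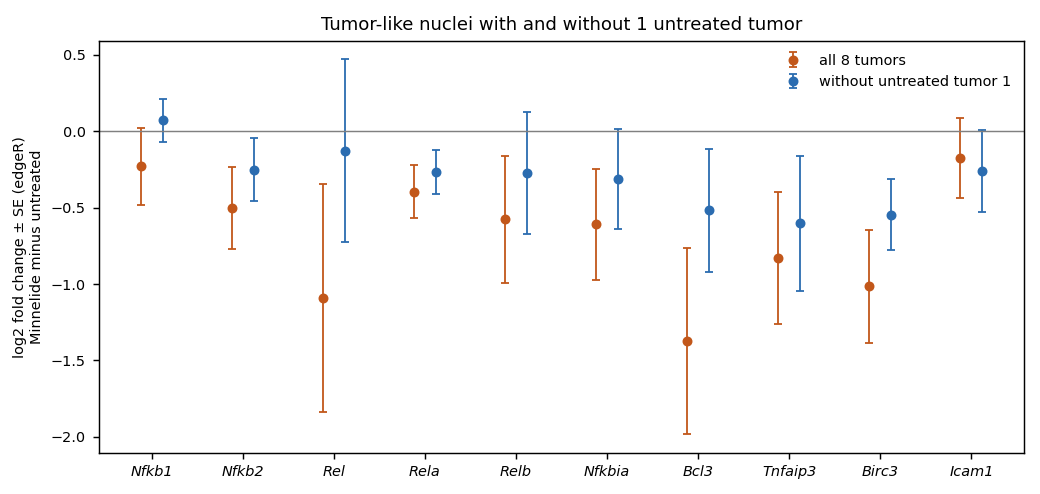
Log2 fold change (Minnelide minus untreated) ± SE from edgeR in tumor-like nuclei, for all 8 tumors (orange) and without untreated tumor 1 (blue). The blue points lie closer to 0 than the orange for each gene other than Icam1, and Nfkb1 crosses to above 0.

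Summed over all retained nuclei, as a bulk sample of the tumor would be, the direction was the same. In such sums fewer cells of a type and less RNA per cell cannot be told apart, and class shares varied widely, with tumor-like nuclei at 39.5% to 81.0% of the untreated and 34.5% to 77.9% of the Minnelide tumors. Of 13817 genes, 0 (0.00%) passed adjustment in edgeR and 176 in DESeq2, and 1378 had p under 0.05 before adjustment in edgeR. The log2 fold change was below 0 for 10 of the 10 genes (49.4% of all genes), and 4 of the 10 had an unadjusted p under 0.05 (7.54% of all genes, lower). The groups did not overlap for Rela and Birc3 (6.93% of all genes, lower). Birc3 measured 70.7, 42.3, 41.7 and 34.5 CPM in untreated tumors 1 to 4 and 17.3, 25.5, 24.7 and 20.5 CPM in Minnelide tumors 1 to 4. Each treated tumor lay below each untreated tumor, and the log2 fold change was -0.94 ± 0.22 with an adjusted p of 0.461 by edgeR. DESeq2 gave -0.90 with an adjusted p of 0.0218, so Birc3 fell by that tool, which called 1.11% of all genes lower. Bcl3 (-1.12 ± 0.36), Tnfaip3 (-0.92 ± 0.35) and Rela (-0.37 ± 0.15) were the others under an unadjusted p of 0.05, with adjusted p values of 0.461, 0.475 and 0.490 by edgeR. The median of the 10 genes was -0.574, -0.390 without untreated tumor 1 and -0.729 without Minnelide tumor 2. Osteoclast-like nuclei, the class with the highest Birc3, made up 0.579% to 3.41% of the untreated and 0.557% to 1.90% of the Minnelide tumors.

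In macrophage-like nuclei Rel, Relb and Nfkb1 had nearly equal group means, and Bcl3 was lower in 3 of the 4 treated tumors. Of 8290 genes, 0 (0.00%) passed adjustment in edgeR and 0 in DESeq2, and 316 had p under 0.05 before adjustment in edgeR. The log2 fold change was below 0 for 9 of the 10 genes (52.0% of all genes) with a median of -0.325, 0 of the 10 were lower without overlap (1.34% of all genes), and 1 had an unadjusted p under 0.05 (2.10% of all genes, lower). The median was -0.100 with 7 of 10 below 0 without untreated tumor 1, and -0.082 with 6 of 10 below 0 without Minnelide tumor 1. The gene under an unadjusted p of 0.05 was Bcl3, at 105, 70.6, 43.4 and 66.0 CPM in untreated tumors 1 to 4 and 28.4, 28.0, 55.3 and 22.8 CPM in Minnelide tumors 1 to 4. Minnelide tumor 3 lay within the untreated range and the other 3 below it, for a log2 fold change of -1.04 ± 0.35, an unadjusted p of 0.0131 and an adjusted p of 0.983 by edgeR. Tnfaip3 measured 30.7, 22.4, 21.7 and 16.5 CPM in untreated tumors 1 to 4 and 5.10, 13.99, 22.9 and 9.11 CPM in Minnelide tumors 1 to 4. These values rest on few UMIs, and its log2 fold change was -0.97 ± 0.46 with an adjusted p of 0.983 by edgeR. Rel had means of 86.6 ± 26.2 and 81.5 ± 27.7 CPM (SD, n = 4 each), Relb of 61.5 ± 14.7 and 58.7 ± 17.8, and Nfkb1 of 384 ± 43.3 and 363 ± 57.0. The spread between tumors was larger than these differences. The macrophage markers in these nuclei summed to 1761 to 9280.1 CPM across untreated and 2102 to 4837 CPM across Minnelide tumors, and their part was not tested. Counts of the 10 genes per tumor in this class ran from 2 to 426 UMIs.

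Whether the Minnelide difference was the same in macrophage-like and tumor-like nuclei was tested as an interaction. Of 13504 genes, 0 (0.00%) passed adjustment in edgeR and 0 in DESeq2, and 776 had p under 0.05 before adjustment in edgeR. In this joint fit the macrophage-like log2 fold change lay above the tumor-like one for 10 of the 10 genes. Of all genes tested, 43.1% had a difference below 0, and the median difference was 0.064. For Tnfaip3 the separate fits gave the opposite order. For 1 of the 10, Nfkbia, the unadjusted p was under 0.05 (4.58% of all genes in that direction), with a difference of 0.50 ± 0.20 and an adjusted p of 0.811 by edgeR. Rel differed by 1.13 ± 0.54 and Birc3 by 0.62 ± 0.29, with adjusted p values of 0.878 and 0.867 by edgeR. Without untreated tumor 1 the Rel difference was 0.40, and Nfkb1, Nfkb2, Rela and Bcl3 changed sign. Without Minnelide tumor 3 the difference was below 0 for 3 of the 10.

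Osteoclast-like nuclei, with the highest levels, were described by group without a test. Tnfaip3 measured 242, 88.5, 117 and 177 CPM in untreated tumors 1 to 4 and 31.2, 67.0, 93.9 and 104 CPM in Minnelide tumors 1 to 4. The means were 156 ± 68.0 and 74.1 ± 32.6 CPM, and the ranges overlapped. Birc3 measured 283, 264, 274 and 279 CPM in untreated tumors 1 to 4 and 78.0, 174, 267 and 165 CPM in Minnelide tumors 1 to 4. The untreated tumors lay within a narrow band, and 3 of the 4 treated tumors lay below it. Relb measured 130.2, 119, 114 and 119 CPM in untreated tumors 1 to 4 and 42.3, 127, 51.5 and 63.5 CPM in Minnelide tumors 1 to 4. Again 3 treated tumors were below the untreated band, and Minnelide tumor 2 was within it. Rela had 0 UMIs in Minnelide tumor 2, where 3 counts would be 20.1 CPM, so its level there is limited by depth. The mean of each of the 10 genes was lower in the treated group, with ratios of means from 0.462 for Bcl3 to 0.920 for Nfkb1. The share of all genes with a lower treated mean was not computed in this class, so this count only describes the 10. The 8 osteoclast markers themselves summed to 8597 to 13789 CPM across untreated and 4449 to 10043 CPM across Minnelide tumors in these nuclei. The 8 tumor markers summed there to 1614 to 5691 CPM across untreated and 4315 to 12462 CPM across Minnelide tumors. The part of either list in these values was not tested.

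In fibroblast-like nuclei Tnfaip3 and Birc3 were lower without overlap, and Nfkb1 had the higher mean in the treated group. Of 11434 genes, 0 (0.00%) passed adjustment in edgeR and 15 in DESeq2, 0 of them among the 10, and 533 had p under 0.05 before adjustment in edgeR. The log2 fold change was below 0 for 8 of the 10 genes (50.0% of all genes), 2 of the 10 did not overlap (2.20% of all genes, lower), and the same pair had an unadjusted p under 0.05 (2.70% of all genes, lower). Their median was -0.254, -0.144 without Minnelide tumor 1 and -0.409 without Minnelide tumor 2, and 6 of the 10 were below 0 without untreated tumor 1. Nearly all fibroblast-like nuclei of untreated tumor 1 lay in 1 of the 3 clusters, of whose 1047 nuclei 97.7% were its own. Tnfaip3 measured 15.3, 6.67, 8.07 and 9.89 CPM in untreated tumors 1 to 4 and 4.33, 5.37, 5.99 and 5.91 CPM in Minnelide tumors 1 to 4. All treated tumors lay below all untreated tumors, for a log2 fold change of -0.84 ± 0.30 with an adjusted p of 0.966 by edgeR. Birc3 measured 61.3, 43.7, 39.1 and 44.5 CPM in untreated tumors 1 to 4 and 25.8, 37.3, 33.2 and 37.4 CPM in Minnelide tumors 1 to 4. The groups lay side by side without overlap, with a log2 fold change of -0.44 ± 0.18 and an adjusted p of 0.966 by edgeR. Nfkb1 measured 296, 317, 299 and 311 CPM in untreated tumors 1 to 4 and 275, 631, 257 and 269 CPM in Minnelide tumors 1 to 4. Minnelide tumor 2 had more than any other tumor and the other 7 were alike, so the log2 fold change of 0.28 ± 0.30 rested on that tumor and was -0.16 ± 0.13 without it. Relb in Minnelide tumor 2, at 44.8 CPM, was also above the other treated tumors. Nfkb2 (0.02 ± 0.25) and Icam1 (-0.10 ± 0.30) lay near 0, and their sign changed with the scaling or the doublet filter.

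In endothelial-like nuclei the treated mean was lower for each of the 10 genes. Of 9728 genes, 0 (0.00%) passed adjustment in edgeR and 46 in DESeq2, 0 of them among the 10, and 1010 had p under 0.05 before adjustment in edgeR. The log2 fold change was below 0 for 10 of the 10 (51.5% of all genes) with a median of -0.620. Without untreated tumor 1 the median was -0.358, Icam1 moved from -0.82 ± 0.47 to -0.23 ± 0.39 and Bcl3 from -0.71 ± 0.37 to -0.30 ± 0.29. That tumor's endothelial-like nuclei lay almost entirely in 1 of the 2 clusters of the class, of whose 414 nuclei 97.8% were its own, so its values and those of the other tumors come from different clusters. The groups did not overlap for Nfkb1, Nfkb2, Rela and Birc3, 4 of the 10 (3.74% of all genes, lower), and 3 of the 10 had an unadjusted p under 0.05 (5.48% of all genes, lower). Nfkb2 measured 29.3, 17.3, 13.6 and 16.1 CPM in untreated tumors 1 to 4 and 8.74, 13.4, 13.4 and 8.92 CPM in Minnelide tumors 1 to 4. Untreated tumor 1 was highest, and Minnelide tumors 2 and 3 lay just under the lowest untreated tumor. Here the log2 fold change was -0.72 ± 0.30 with an adjusted p of 0.468 by edgeR. Birc3 measured 83.1, 56.1, 46.6 and 47.1 CPM in untreated tumors 1 to 4 and 35.0, 41.2, 34.4 and 41.9 CPM in Minnelide tumors 1 to 4. Untreated tumor 1 again stood highest, and the log2 fold change was -0.56 ± 0.19 with an adjusted p of 0.453 by edgeR. Relb measured 84.9, 58.1, 46.6 and 49.8 CPM in untreated tumors 1 to 4 and 31.5, 56.7, 24.4 and 33.0 CPM in Minnelide tumors 1 to 4. Minnelide tumor 2 fell inside the untreated range, and the log2 fold change was -0.68 ± 0.27 with an adjusted p of 0.462 by edgeR. Nfkb1 measured 393, 356, 372 and 382 CPM in untreated tumors 1 to 4 and 290.1, 356, 269.7 and 309 CPM in Minnelide tumors 1 to 4. The lowest untreated and the highest treated tumor nearly met, with a log2 fold change of -0.25 ± 0.13. Rela measured 29.9, 26.5, 23.3 and 30.9 CPM in untreated tumors 1 to 4 and 21.8, 22.7, 18.6 and 22.3 CPM in Minnelide tumors 1 to 4, with a log2 fold change of -0.32 ± 0.19. Icam1, which endothelial cells put on their surface to hold leukocytes, measured 75.1, 15.3, 15.7 and 41.7 CPM in untreated tumors 1 to 4 and 24.0, 22.7, 18.6 and 13.4 CPM in Minnelide tumors 1 to 4. Untreated tumors 1 and 4 were high and the other 6 tumors lay together, for a log2 fold change of -0.82 ± 0.47 and an adjusted p of 0.561 by edgeR. The endothelial markers summed to 5313 to 6547 CPM across untreated and 3329.7 to 6416 CPM across Minnelide tumors, with 7 of 8 below 0. The 8 tumor markers summed there to means of 5597 CPM (untreated) and 10063 CPM (Minnelide), with 8 of 8 above 0. The part of either list was not tested.

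**Figure D4:**
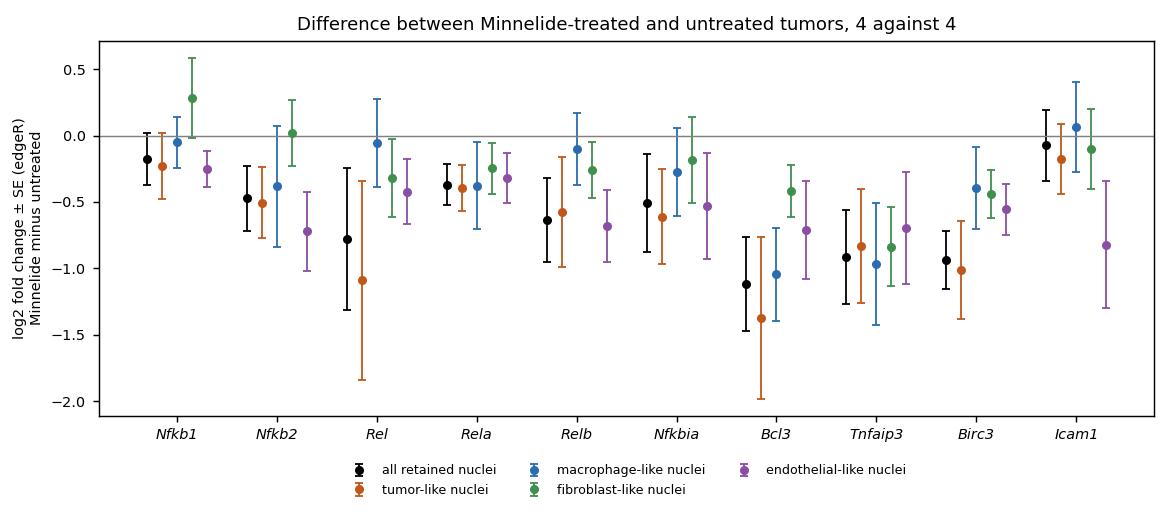
Log2 fold change (Minnelide minus untreated) ± SE from edgeR for each gene in all retained nuclei and in 4 classes, 4 tumors against 4. Rel, Rela, Relb, Nfkbia, Bcl3, Tnfaip3 and Birc3 lie below 0 in all 5 sets, whereas Nfkb1, Nfkb2 and Icam1 take both signs, and no value passed adjustment.

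The rest of the pathway was read from lists by role. In tumor-like nuclei 5 of the 9 ligands could be tested, and 4 of them had a log2 fold change below 0. For receptors and adaptors it was 20 of 22 tested, for kinases and ubiquitin enzymes 11 of 18, for further inhibitors 9 of 11 and for other target genes 18 of 19. The medians were -0.856, -0.531, -0.049, -0.522 and -0.737, and the kinases lay nearest to the median of all genes. edgeR called 0 genes of these lists, and DESeq2 called 1, Csf1, in tumor-like nuclei (0.353% of all genes, lower). Over all retained nuclei DESeq2 called 4 list genes, each lower in the Minnelide tumors, and 1.11% of all genes lower. Of 20 tested other target genes they were Csf1 (-1.33, adjusted p = 3.40e-06) and Cxcl10 (-1.85, adjusted p = 0.0495). Of 22 receptors and adaptors it was Tnfrsf11a (-1.15, adjusted p = 0.0260), and of 12 inhibitors Tnip1 (-0.70, adjusted p = 0.0326). None of the 5 ligands or 18 kinases and ubiquitin enzymes was called. In these sums fewer cells of a type and less RNA per cell cannot be told apart. A gene that passed the count filter only through the untreated tumors had to lie below 0, so these counts describe the tested genes alone. The 10 genes themselves all passed that filter in each class tested, but whether they passed through both groups was not checked. Tnfaip3 in macrophage-like nuclei, for example, had 73 UMIs in the untreated and 26 in the Minnelide tumors. The same limit may therefore hold for some of the 10.

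Named by the smallest unadjusted p within each list, Csf1, the growth factor of macrophages and osteoclasts, had an untreated mean of 43.9 ± 21.2 and a Minnelide mean of 16.8 ± 2.24 CPM (SD, n = 4 each). Its groups did not overlap, and the log2 fold change was -1.20 ± 0.26 with an adjusted p of 0.702 by edgeR and 0.0157 by DESeq2. Plau, encoding urokinase, had 14.7 ± 6.69 and 6.06 ± 1.35 CPM, and the transcription factor gene Irf1 had 23.9 ± 14.01 and 10.7 ± 3.06 CPM, both without overlap. The cytokine gene Il1b (-1.40 ± 0.50) and Tnf (-1.05 ± 0.36) were the ligands with the smallest p. Among receptors and adaptors they were Tnfrsf11a (-1.30 ± 0.33), Tlr2 (-1.07 ± 0.33) and Traf1 (-1.89 ± 0.64), of which the first 2 did not overlap. Rnf31, encoding a subunit of the linear ubiquitin ligase, led the kinases and ubiquitin enzymes at -0.48 ± 0.18. On the list of further inhibitors, Nfkbiz, a nuclear IkB gene placed there by family, had -0.81 ± 0.29. Tnip1, a partner of the Tnfaip3 product, had -0.70 ± 0.27.

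**Figure D5:**
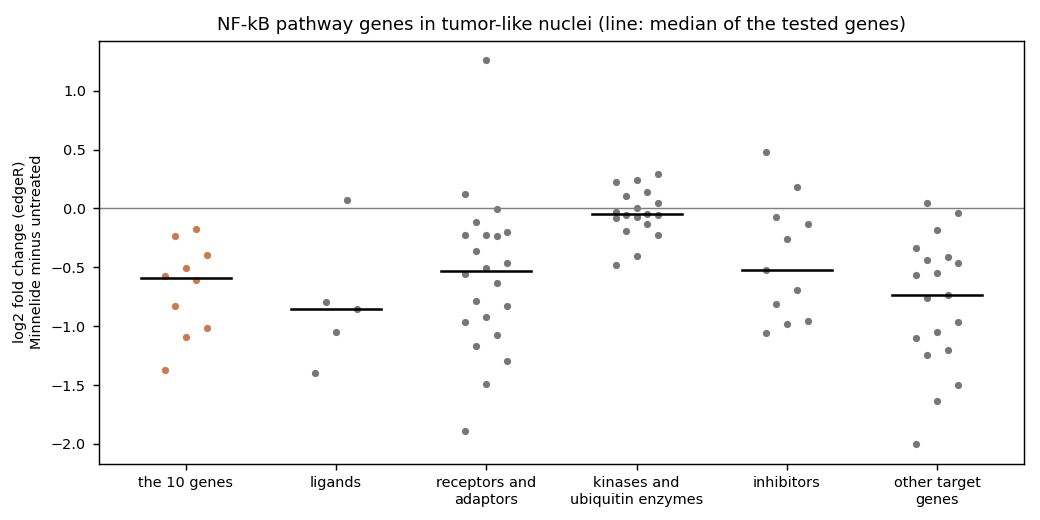
Log2 fold change (Minnelide minus untreated) from edgeR in tumor-like nuclei, a point per tested gene, for the 10 genes (orange) and the 5 pathway lists (grey), with a line at each median. The kinases and ubiquitin enzymes center near 0 and the other lists below it.

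Outside the tumor-like class fewer list genes passed the count filter. In macrophage-like nuclei 8 of 12 tested target genes had a log2 fold change below 0, including Tnfaip2 (-1.12 ± 0.37) and Vcam1 (-2.17 ± 0.83), whereas Il1b had 1.02 ± 0.57, with means of 30.7 ± 28.0 (untreated, lowest tumor at 0) and 71.0 ± 30.1 CPM (Minnelide). In fibroblast-like nuclei Tnfsf11 had means of 145 ± 24.5 (untreated) and 77.1 ± 35.0 CPM (Minnelide), with a log2 fold change of -0.87 ± 0.31 and an adjusted p of 0.966 by edgeR. Map3k14, encoding the kinase NIK that starts the noncanonical arm, had 122 ± 18.9 and 71.2 ± 10.4 CPM there without overlap, and 42.9 ± 11.01 and 23.7 ± 3.27 CPM in endothelial-like nuclei, again without overlap. Its adjusted p values by edgeR were 0.966 and 0.410. The kinase list as a whole lay at medians of 0.015 and 0.010 in these classes.

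The pattern of each gene over the 55 sums of a tumor and a class was compared with 9721 genes. These correlations are descriptions, since the sums share tumors, depth and class. Birc3 was most like Ppm1h (Pearson r = 0.930), Tnfrsf11a (0.923) and Abi1 (0.922). Tnfaip3 was most like Tank (0.915) and 2 genes of the vacuolar proton pump, Atp6v1b2 (0.914) and Atp6v1d (0.908). Rel was most like Snx10 (0.895), Nfkb1 like Mdfic (0.882), Relb like Abi1 (0.868), Nfkb2 like Tank (0.825) and Nfkbia like Hsd3b7 (0.868). Bcl3, Rela and Icam1 had weaker best matches, Vwa5a (0.772), Tmed8 (0.685) and Fbxo33 (0.686). Among the 10 genes themselves the closest pair was Rel and Birc3 (r = 0.860), and the least alike was Rel and Rela (r = -0.00917).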

How the data were processed

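Per the methods, the authors prepared nuclei from dFLEx CDS tumors, sequenced 10x 3′ libraries and aligned the reads with intronic reads included. The deposited matrices hold UMI counts per gene and nucleus as written by Cell Ranger, version 9.0.1 in the file headers and 7.0.1 in the submitters' processing notes. The build in those notes is mm39. Nuclei with fewer than 200 genes, or put by a mixture model into the high-mitochondrial component (posterior 0.75 or more), were removed here. So were those with the highest Scrublet scores, 0.8% per 1000 nuclei of a tumor. Clustering used scanpy 1.11.5 on 2000 variable genes without the 10 genes, the pathway genes or the markers, with 30 principal components, 40 neighbors and Leiden resolution 1. UMIs were summed per tumor and class where at least 20 nuclei were present. edgeR 4.0.16 (quasi-likelihood, TMM, Benjamini-Hochberg over all genes) compared 4 Minnelide with 4 untreated tumors, and DESeq2 1.42.0 was an alternative. All tests were two-sided. Each group was deposited as 1 sample holding 4 matrices, each taken as 1 tumor from its file, and p-values measure only the spread between these matrices. All 10 genes were described, and from each list by role up to 4 genes with the smallest p in a class could be named. The 3 genes with the highest Pearson correlation of log2(CPM + 5), among genes with a mean of at least 10 CPM, were taken as most alike. The tests were checked on simulated data. The genes and lists were chosen with earlier results of these data known. The paper reports that it sequenced treated tumors of good and of poor response, and the Minnelide group was not split here. Grouping by response was not used, because only file names assign it to a tumor.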

Additional observations from a re-analysis of the deposited data

Results flagged for a closer look

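In 15 of 120 groups of 4 tumors 1 tumor lay far above the other 3, by the gap to its nearest neighbor over the group's range. For normally distributed values chance alone sets apart about 1 in 20 such groups, but whether these CPM values are normally distributed was not tested. The values of a tumor are also not independent between genes. Untreated tumor 1 accounted for 7 of the 15 and Minnelide tumor 2 for 6.

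In tumor-like nuclei the values set apart were Nfkb1 in untreated tumor 1 at 451 CPM (next highest 227), Nfkb2 in untreated tumor 1 at 14.5 CPM (next highest 7.46), Rel in untreated tumor 1 at 48.6 CPM (next highest 10.3), Bcl3 in untreated tumor 1 at 44.4 CPM (next highest 10.4) and Birc3 in untreated tumor 1 at 72.2 CPM (next highest 27.4). Others there were Rel in Minnelide tumor 2 at 17.6 CPM (next highest 4.67), Bcl3 in Minnelide tumor 2 at 11.1 CPM (next highest 4.38), Nfkbia in Minnelide tumor 4 at 129 CPM (next highest 67.6) and Icam1 in untreated tumor 4 at 29.8 CPM (next highest 19.8). Over all retained nuclei they were Rel in Minnelide tumor 2 at 31.2 CPM (next highest 10.4), Relb in untreated tumor 1 at 38.9 CPM (next highest 28.5) and Bcl3 in Minnelide tumor 2 at 19.2 CPM (next highest 9.77). In fibroblast-like nuclei they were Nfkb1 in Minnelide tumor 2 at 631 CPM (next highest 275), Relb in Minnelide tumor 2 at 44.8 CPM (next highest 29.5) and Icam1 in untreated tumor 1 at 28.1 CPM (next highest 12.9). Each is a single tumor, and no cause was tested.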

How the results depend on the processing

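Of 359 values under other settings, 355 kept their direction and their side of the threshold. The exceptions were in fibroblast-like nuclei Nfkb2 at -0.039 (total UMIs without TMM), Nfkb2 at -0.013 (doublets kept) and Icam1 at 0.039 (doublets kept), and Birc3 over all retained nuclei, which passed in DESeq2 at -0.90 (adjusted p = 0.0218). DESeq2 called 176 genes over all retained nuclei, 52 in tumor-like, 15 in fibroblast-like and 46 in endothelial-like nuclei, where edgeR called 0, and the cause was not tested. With total UMIs in place of TMM the median of all genes moved to -0.147 over all retained and -0.142 in tumor-like nuclei. Leaving out a tumor at a time gave 480 values, of which 33 changed sign. Genes called ranged from 0 to 1 over all retained nuclei (1 without Minnelide tumor 2) and from 0 to 1 in endothelial-like nuclei (1 without untreated tumor 1). The log2 fold changes that crossed 0 ranged in all retained nuclei (Icam1 -0.21 to 0.099), tumor-like nuclei (Nfkb1 -0.35 to 0.070, Icam1 -0.30 to 0.022), macrophage-like nuclei (Rel -0.25 to 0.17, Nfkbia -0.48 to 0.061, Nfkb1 -0.12 to 0.042, Icam1 -0.10 to 0.24, Relb -0.24 to 0.030) and fibroblast-like nuclei (Nfkbia -0.43 to 0.15, Icam1 -0.24 to 0.27, Nfkb2 -0.087 to 0.12, Nfkb1 -0.16 to 0.41). Of the differences between macrophage-like and tumor-like nuclei, those that crossed 0 were Nfkb1 -0.17 to 0.39, Nfkb2 -0.13 to 0.48, Rela -0.17 to 0.40, Bcl3 -0.100 to 0.83, Icam1 -0.086 to 0.39, Tnfaip3 -0.41 to 0.49. Stricter naming left unnamed each cluster that also had raised markers of another class. All macrophage-, fibroblast- and endothelial-like clusters were of this kind, and the tumor-like clusters kept came almost only from Minnelide tumor 1. It could therefore not be fitted for the tumor-, macrophage-, fibroblast- and endothelial-like classes, and for all retained nuclei it repeats the same sum. In simulated counts the test recovered 58% (all retained), 64% (tumor-like), 76% (macrophage-like), 83% (fibroblast-like) and 87% (endothelial-like) of 4-fold changes, and 83% to 97% of 8-fold ones, so smaller differences may have been missed at this spread. No paired analysis was possible because the labels give the tumors no shared number and the tumor numbers here follow file order, although same-numbered tumors share barcode bases 8 and 9.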
